A study of Mus musculus with 4 samples.

Results

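The latest spermatids recovered from adult mouse testes were chosen by measured UMI counts, as the barcodes whose mRNA for protamine 2 (Prm2) remained while that for transition protein 1 (Tnp1) was nearly gone. Members had at least 500 detected genes, at most 10% of their unique molecular identifiers (UMI) from mitochondrially encoded genes, and at least 4% of UMI from Tnp1, Tnp2, Prm1 and Prm2 together. They also had at least 50 UMI of Tnp1 plus Prm2, a Tnp1 share of that sum, Tnp1/(Tnp1 + Prm2), under 0.03, and at most 2 UMI over the 6 Sertoli cell genes Cst9, Cst12, Aard, Clu, Amhr2 and Defb36. In all, 3310 of the 29968 barcodes kept by the gene and mitochondrial limits were members (exact Clopper-Pearson 95% interval of the share, 10.7 to 11.4%), out of 32273 barcodes deposited. The study profiled suspensions of whole testes of C57BL/6 mice at postnatal day 63, in 2 samples labelled Phf7 tKO and 2 labelled Phf7 f/f. All 4 samples carry floxed (f/f) alleles of Phf7, a PHD finger protein of male germ cells, and the tKO samples also carry Stra8-Cre, whose promoter drives Cre in germ cells. Whether the 2 samples of each genotype were separate animals is not stated in the labels.

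Late in spermatogenesis round spermatids elongate, their nuclei exchange histones first for transition proteins and then for protamines, and transcription ceases as the chromatin condenses. The mRNAs for these nuclear proteins are made early, stored without being translated, and translated at set times. The tail, the mitochondrial sheath of the midpiece and the head cytoskeleton are built in the same period, and most of the cytoplasm is finally shed as the residual body. In a late spermatid, the mRNA content therefore depends largely on what was stored and what has been degraded.

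The upstream sequences of 4 genes are shown. Prm2 and Tnp1 are the genes whose ratio sets the gate, Prm1 enters its sum of nuclear protein UMI, and Lelp1 is a marker gene that the rule does not use. Each is the 250 bases before the RefSeq transcription start (GRCm38.p6), written 5′ to 3′ on the gene's strand, with matches in capitals to TATAAA (the TATA box core) or to TGATGTCA (a near match to TGACGTCA, the site of CREM and CREB). All 4 genes lie on the minus strand, Prm2 at chr16:10792106-10792355, Prm1 at chr16:10796824-10797073, Tnp1 at chr1:73015900-73016149 and Lelp1 at chr3:92142755-92143004.
Prm2: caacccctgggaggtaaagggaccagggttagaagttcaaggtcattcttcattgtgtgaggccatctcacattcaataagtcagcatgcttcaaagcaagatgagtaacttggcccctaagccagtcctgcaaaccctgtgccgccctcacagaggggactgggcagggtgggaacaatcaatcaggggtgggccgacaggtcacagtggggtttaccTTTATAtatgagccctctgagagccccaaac
Prm1: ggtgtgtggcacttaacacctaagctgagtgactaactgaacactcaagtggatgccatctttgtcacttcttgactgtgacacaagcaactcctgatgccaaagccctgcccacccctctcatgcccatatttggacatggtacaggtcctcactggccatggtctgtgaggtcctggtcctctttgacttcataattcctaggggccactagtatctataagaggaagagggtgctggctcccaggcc
Tnp1: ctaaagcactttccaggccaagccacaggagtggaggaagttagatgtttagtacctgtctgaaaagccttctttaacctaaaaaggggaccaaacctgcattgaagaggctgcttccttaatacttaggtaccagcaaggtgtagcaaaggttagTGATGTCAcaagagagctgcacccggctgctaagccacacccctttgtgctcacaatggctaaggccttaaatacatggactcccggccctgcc
Lelp1: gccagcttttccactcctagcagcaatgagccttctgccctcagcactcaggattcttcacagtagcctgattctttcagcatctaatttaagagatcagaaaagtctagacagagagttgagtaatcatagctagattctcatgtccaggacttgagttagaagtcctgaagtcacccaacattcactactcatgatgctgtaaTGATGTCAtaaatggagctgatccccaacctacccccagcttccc
The match of Prm2 lies 31 bases before its start and is to TATAAA on the opposite strand. Those of Tnp1 and Lelp1 are to TGATGTCA on the gene's own strand, 94 and 45 bases before the start. Prm1 held none of the 4 motifs searched, which were TATAAA, TGACGTCA, TGATGTCA and TGACG, each on both strands, with TGACG contained in TGACGTCA. Of 27025 upstream windows of the same length, 13.0% held TATAAA, 1.62% TGACGTCA, 3.02% TGATGTCA and 17.9% TGACG. Of the 6 marker genes, 5 were in the RefSeq table. The same search found no match in the windows of Smcp, Spem1, Tnp2 and Prm3, which are not shown. That of Fscn3, also not shown, held TATAAA on the opposite strand, 74 bases before its start.

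The deposited matrix held 28692 genes and 190744950 UMI from 4 libraries told apart only by a barcode suffix of 1 to 4, with 44447735 to 50353091 UMI each. The labels and headers give no key from suffix to sample, so the genotypes were not compared, the matrix counted as 1 pooled sample, and no p-value is given. The 4 suffixes are shown beside the pooled value as 4 libraries without a label. Among the members, 99 had a barcode sequence that also occurred in another suffix. The matrix held 497 such sequences, and 5 of these sequences were held by more than 1 member. Expression levels are UMI summed over the cells of a gate per 1000000 UMI (CPM), with UMI counted at transcript 3′ ends and so not divided by length. Members held a median of 5494 UMI and 1247 genes.

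The latest spermatids were present in every suffix, with 702, 658, 1028 and 922 members in suffixes 1 to 4. These made up 9.17%, 9.46%, 13.9% and 11.6% of the kept barcodes of their suffix. Among all cells that met the other limits at any Tnp1 share they were 35.8% (3310 of 9250), and 32.2%, 35.1%, 39.2% and 35.8% in suffixes 1 to 4. The rest were 1775 falling-share spermatids, with a Tnp1 share of 0.03 to under 0.2, and 4165 high-share spermatids, with a share of 0.2 or more. The limit at 0.03 did not fall into a gap. The 125 members with shares of 0.025 to under 0.03 had medians of 11 UMI of Tnp1, 153 of Prm1 and 370 of Prm2, and the 92 cells with shares of 0.03 to under 0.035 had 13, 112 and 395.

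The levels of the nuclear protein mRNAs follow from the rule, in whole or in part, and are given as a description. Prm2, the protamine cleaved during chromatin packing, was at 123227, 116700, 116977 and 114764 CPM in the latest spermatids of suffixes 1 to 4. It was at 77358, 58159, 73268 and 60894 CPM in falling-share and at 54324, 57543, 55976 and 61464 CPM in high-share spermatids. Every latest suffix was above every other. Tnp1, the smaller transition protein, was at 1047, 776, 796 and 867 CPM, against 8803 to 9402 CPM in falling-share and 19403 to 21668 CPM in high-share spermatids. Tnp2, the other transition protein, was at 4246, 3451, 4418 and 4679 CPM, against 20925 to 23075 and 37294 to 42608 CPM. Prm1, the protamine laid down without cleavage, was at 20381, 15214, 16917 and 15553 CPM, against 31616 to 53529.7 CPM in falling-share and 36779.5 to 42779.8 CPM in high-share spermatids. No suffix overlapped between the latest gate and either other gate for any of the 4 genes. Prm3, a testis gene of the same chromosome 16 cluster that the rule does not use, was at 2058, 1365, 1591 and 1538 CPM in the latest spermatids, against 2809, 1653, 2161 and 1681 CPM in falling-share and 2324, 1896, 2022 and 1996 CPM in high-share spermatids. Its suffixes overlapped with both. Prm1, Prm2, Prm3 and Tnp2 lie next to each other on the minus strand.

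**Figure D1:**
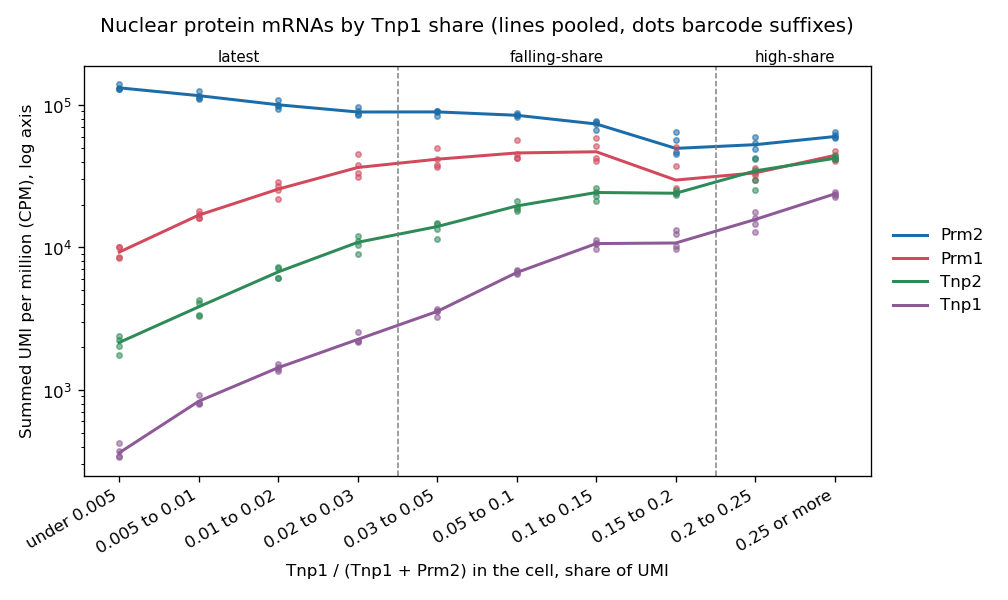
CPM (log axis) of Prm2, Prm1, Tnp2 and Tnp1 in cells binned by their Tnp1 share, with pooled values as lines, suffixes as dots and the gate limits as dashed lines. At the left end, under 0.005, Prm2 stood at 131924 CPM and Tnp1 at 362 CPM, and at the right end, at 0.25 or more, at 60006 and 23739 CPM.

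Within the gate the 4 mRNAs spread over a wide range as well. In the 1293 members with a Tnp1 share under 0.005, Prm1 was at 9275 CPM and Tnp2 at 2152 CPM. In the 290 members with shares of 0.02 to under 0.03, Prm1 was at 36406 CPM and Tnp2 at 10861 CPM. Droplets also capture free RNA, so the levels were set beside those in barcodes that should lack these transcripts, 272 barcodes with at least 1% of UMI from 6 macrophage genes and 37 with at least 2% from 6 Leydig cell genes. The latest spermatids held a mean of 5.55 UMI of Tnp1 per cell (median depth 5494 UMI), against 4.93 in macrophage barcodes (median depth 2423.5 UMI) and 2.65 in Leydig barcodes (median depth 8329 UMI). For Prm2 the means were 754 in latest spermatids, 26 in macrophage and 12.2 in Leydig barcodes. At or below the 95th percentile of the macrophage barcodes lay 89.0% of the latest spermatids for Tnp1, 76.7% for Tnp2, 48.8% for Prm1 and 0.272% for Prm2. The rule itself asks for a low Tnp1 and a high Prm2, so these values describe the members and support nothing further.

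The other 5 marker genes, which the rule does not use, were all higher in the latest spermatids than in high-share spermatids, and no suffix of the first gate overlapped with any of the second. Smcp, a cysteine-rich protein of the mitochondrial capsule, stood at 22735, 24309.8, 22504 and 23625 CPM in the latest spermatids of suffixes 1 to 4, against 8912, 9988, 9607 and 10654 CPM in high-share spermatids, a log2 ratio of 1.26. It was the most abundant mRNA of the latest spermatids after Prm2. Lelp1, a small proline-rich protein, stood at 3254, 3505, 3353 and 3458 CPM, against 1104, 1265, 1245 and 1395 CPM (log2 ratio 1.45). Spem1, which spermatids need to shed their cytoplasm in the mouse, stood at 2378, 2319, 2596 and 2432 CPM, against 830.5, 967, 983 and 1041 CPM (log2 ratio 1.37). Azin2, an antizyme inhibitor that relieves ornithine decarboxylase from its antizymes, stood at 1114, 1098, 1094 and 968 CPM, against 387, 415, 419 and 396 CPM, likewise past 2-fold. Fscn3, a fascin of the testis from a family of actin-bundling proteins, stood at 473, 428, 473 and 411 CPM, against 162, 189, 186 and 187 CPM (log2 ratio 1.31). Against falling-share spermatids the log2 ratios were smaller, 0.92 for Smcp, 1.08 for Lelp1, 1.02 for Spem1, 0.99 for Azin2 and 1.04 for Fscn3. These are shares of cells that held a mean of 6411 UMI in the latest and 11542 in the high-share gate. In mean UMI per cell the differences were smaller, at 149 and 112 for Smcp and 21.7 and 14.3 for Lelp1. Spem1 was at 15.7 and 10.9 UMI, Azin2 at 6.82 and 4.65, and Fscn3 at 2.86 and 2.07. The markers had been named with these data known, so they check the label only in that the members carry them.

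**Figure D2:**
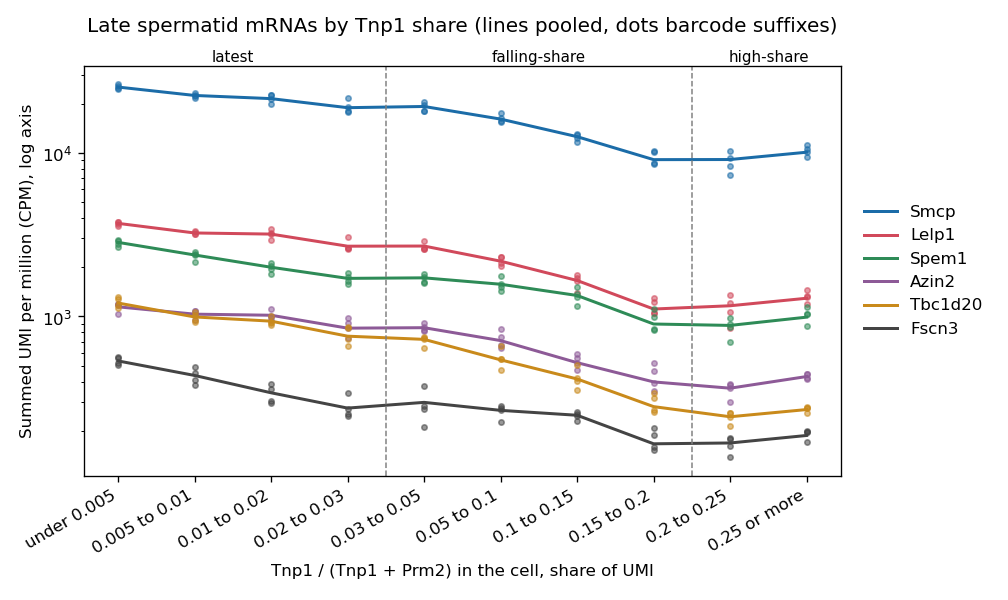
CPM (log axis) of 6 mRNAs in cells binned by their Tnp1 share, with pooled values as lines, suffixes as dots and the gate limits as dashed lines. All 6 were higher in the first bin than in the last, Smcp at 25307 against 10108 CPM and Fscn3 at 535 against 187 CPM.

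The transcriptome of the latest spermatids was narrower than that of the other gates. With every cell thinned to 1000 UMI, latest spermatids held a median of 452 genes, falling-share spermatids 526 and high-share spermatids 538, with 3 falling-share cells left out as too shallow. The 50 most abundant genes took 41.9% of the UMI of latest spermatids, 31.6% of falling-share and 33.2% of high-share spermatids. Without thinning, the median UMI per cell were 5494, 5333 and 9391. Calls of higher or lower required that the pooled CPM differed at least 2-fold and in the same direction in all 4 suffixes, over genes with at least 20 UMI expected in the smaller gate and without Tnp1, Tnp2, Prm1 and Prm2. Against high-share spermatids 368 of 9973 genes were higher (3.69%) and 2452 lower (24.6%) in the latest spermatids. Against falling-share spermatids 68 of 9458 were higher (0.719%) and 2825 lower (29.9%), and the 68 became 119 without suffix 1, 107 without suffix 3 and 45 without suffix 4. The calls used below hold against both gates, with 52 of 9372 genes higher (0.555%) and 2008 lower (21.4%). Statements that suffixes did not overlap between gates describe the genes named. They were not set against the share of all genes without overlap.

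CPM is a share of the total, and most genes had a lower share in the latest spermatids. The median gene was at a log2 ratio of -0.49 against falling-share and of -0.20 against high-share spermatids. Genes with ratios above 0 held 62.0% of the UMI of the latest and 40.6% of those of the falling-share spermatids. Relative to the median gene, 633 genes were higher and 1759 lower than in falling-share spermatids. The falling-share gate also depends on its limits. Where every gate had to hold at least 8% of UMI from the 4 nuclear protein genes, which left 3097 latest, 1145 falling-share and 3724 high-share cells, 37 of 7873 genes were higher (0.47%) and 1212 lower (15.4%) than in falling-share spermatids. Calls that held in all these comparisons numbered 14 higher (0.178%) and 1108 lower (14.1%) of 7871. Over the 8 round spermatid markers the summed level was 315 to 408 CPM by suffix in latest, 1081 to 1788 in falling-share and 1270 to 1701 in high-share spermatids. Its part in the calls was not tested, and Acrv1, Spaca1, Izumo1, Sun5 and Tssk1 belong to these markers as well as to the lists described next.

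The gene lists, 20 in all with 371 entries, group genes by role. Over all genes 21.4% were lower and 0.555% higher than in both gates, and a list's counts are read against these shares. Among spermatid histones, 2 of 11 measured members were lower in the latest spermatids than in both other gates and none was higher. Hils1, a linker histone-like protein of elongating spermatids, was at 337, 342, 335 and 419 CPM in the latest spermatids, against 2625, 2308, 2389 and 2179.9 CPM in high-share spermatids (log2 ratio -2.73, counting interval -2.77 to -2.70). H1fnt, the testis linker histone H1T2, was at 1127, 1103, 1205 and 1142 CPM, against 2737, 3035, 2897 and 3119.6 CPM (log2 ratio -1.35). Both lay below both other gates in every suffix. H2afj stood at a log2 ratio of 0.72 and H2afv, a variant of H2A.Z, at 1.20. The levels of H2afv were low, 8.48 CPM in latest and 3.68 CPM in high-share spermatids. H3f3a, which encodes the replacement histone H3.3, was at 193 CPM in latest, 445 CPM in falling-share and 313 CPM in high-share spermatids, lower than in falling-share spermatids alone by the 2-fold rule.

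In the list of bromodomain and acetylation genes 2 of 14 were lower than in both gates, Cdyl and Brd3. Cdyl, a chromodomain Y-like corepressor, was at 41.5, 37.3, 35.5 and 53.3 CPM in the latest spermatids, against 481, 332, 387 and 267 CPM in high-share spermatids. Brd3, a bromodomain protein of the BET family, was at 15.2, 20.8, 15.2 and 23.7 CPM, against 65.3, 72.4, 72.5 and 71.1 CPM. Brdt, the testis member of that family, was at 15.2, 22.9, 21 and 22 CPM in latest spermatids, against 27.5, 35.6, 19.8 and 27.7 CPM in falling-share and 22.3, 20.2, 18.5 and 12.7 CPM in high-share spermatids, and its suffixes overlapped among all 3 gates. Among 11 spermatid transcription genes 2 were lower, Fhl5 and Sox30. Fhl5 (ACT), a coactivator of CREM, was at 105, 96.8, 91.7 and 111 CPM, against 935, 780, 860.1 and 686 CPM. Sox30, a transcription factor that spermiogenesis needs in mice, was at 9.67, 6.93, 5.82 and 7.73 CPM, against 64, 33.3, 42.9 and 22.6 CPM. The remaining members stayed within the 2-fold rule in at least 1 comparison, such as Tbp, the TATA-binding protein, at 14.2 CPM in latest and 9.26 CPM in high-share spermatids.

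The list with the largest share of members lower was that of the perinuclear theca, the cytoskeletal capsule around the sperm nucleus, and of actin-like proteins. Of 17 members 12 were lower than in both gates, 11 also when every gate held at least 8% nuclear protein UMI, and none was higher. Its median log2 ratio was -1.86 against falling-share and -2.16 against high-share spermatids. Ccin (calicin), a basic protein of the theca, was at 28.6, 25.6, 23.7 and 32.3 CPM in the latest spermatids, against 104, 295, 133 and 288 CPM in falling-share and 214, 107, 158 and 77.5 CPM in high-share spermatids. Actrt3, an actin-related protein, was at 24.8, 19.1, 22.4 and 25.2 CPM, against 98.8 to 264 CPM in falling-share and 76.3 to 192 CPM in high-share spermatids. Cypt4, of the cysteine-rich perinuclear theca family, was at 277, 281, 233 and 281 CPM, against 656 to 1977 and 646 to 1476 CPM. The groups did not overlap for any of the 3. The actin-like genes Actl7a, Actl9 and Actl11 went the other way in this list, without reaching 2-fold, at log2 ratios of 0.53, 0.52 and 0.66 against high-share spermatids. Actl9 stood at 842, 725, 804 and 757 CPM in latest and 567, 522, 552 and 529 CPM in high-share spermatids.

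Acrosome genes were lower mainly against falling-share spermatids. Of 19 measured, 15 were lower in that comparison and 7 against both gates, and 4 remained when every gate held at least 8% nuclear protein UMI. Izumo1, the sperm protein that binds the egg receptor, was at 14.3, 13.9, 9.49 and 15 CPM in latest, 63.8, 105, 87 and 96.5 CPM in falling-share and 68.7, 44.6, 46.5 and 30.9 CPM in high-share spermatids. Acrv1 (SP-10) of the acrosomal matrix was at 23.5, 22.7, 23.3 and 34.9 CPM in latest, 170.1, 244, 165 and 221 CPM in falling-share and 130, 62.6, 76.6 and 38.4 CPM in high-share spermatids. In both genes the latest suffixes lay below all others. Under the 8% limit the log2 ratios against falling-share spermatids were -0.71 for Izumo1 and -0.72 for Acrv1, short of 2-fold. Crisp2, a cysteine-rich protein of the acrosome and the outer dense fibres, was higher, at 6530.2, 6975, 6282 and 6339 CPM in latest against 2817, 3025, 2970.2 and 3098 CPM in high-share spermatids (log2 ratio 1.13). Spam1, the sperm surface hyaluronidase, stood at 18, 25.3, 20.1 and 22.7 CPM in latest against 16.6, 17.3, 17.1 and 16.4 CPM in high-share spermatids, a difference under 2-fold.

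Tail genes included members that were higher and members that were lower. In the list of outer dense fibres and fibrous sheath, 1 of 16 was higher and 4 were lower than in both gates. The 8% limit left 3 of 16 lower in all comparisons and none higher. Oaz3, the haploid-specific antizyme that binds ornithine decarboxylase, was higher at 13879, 15098, 13401 and 13854 CPM in the latest spermatids, against 8051, 6077, 7459 and 6387 CPM in falling-share and 5046, 5523, 5264 and 5885 CPM in high-share spermatids. Its direction against falling-share spermatids was kept under the 8% limit, at a log2 ratio of 0.83, which is short of 2-fold. Gapdhs, the sperm glycolytic enzyme fixed to the fibrous sheath, was at 9574, 9008, 9510.2 and 9152 CPM in latest against 3976, 4361, 4506 and 4759 CPM in high-share spermatids. By contrast Akap3, a scaffold of the fibrous sheath, was at 77.3, 77.4, 70.1 and 93.4 CPM in latest, 244 to 595 CPM in falling-share and 397 to 609 CPM in high-share spermatids. Ropn1 (ropporin), which binds such scaffolds, was at 247, 271, 257 and 279 CPM, against 671 to 1329 and 1439 to 1577 CPM. Odf3, an outer dense fibre gene, was at 47.7, 50.4, 35.4 and 57 CPM, against 117 to 312 and 138 to 304 CPM. Akap4, the main fibrous sheath scaffold, was level, at 1974 CPM in latest, 1854 CPM in falling-share and 2185 CPM in high-share spermatids.

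Of 19 axoneme genes 3 were lower than in both gates and none was higher. Meig1, whose protein acts in the manchette and the flagellum, was at 973, 1114, 975 and 1119.7 CPM in the latest spermatids, against 6008, 5977, 5730.2 and 5736 CPM in high-share spermatids. Tekt5, a tektin, was at 20, 22.7, 17.3 and 25.2 CPM, against 164, 113, 123 and 95.7 CPM. Dnah17, a heavy chain of outer dynein arms, was at 4.83, 4.78, 2.6 and 6.05 CPM, against 11.4, 12.7, 9.91 and 6.99 CPM. Rsph1, of the radial spoke head, was at 314 CPM in latest and 214 CPM in high-share spermatids.

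In the midpiece list 2 of 13 genes were lower than in both gates, and Smcp and Spata18 were higher than in high-share spermatids alone. Spata19, a mitochondrial protein of spermatids, was at 400.3, 386, 374 and 457 CPM in the latest spermatids, against 3136, 3316, 3289 and 3582 CPM in high-share spermatids (log2 ratio -3.03). Klc3, a kinesin light chain that binds mitochondria, was at 41.7, 36.6, 40.6 and 38.8 CPM, against 100.5, 80.1, 89.9 and 73.4 CPM. Spata18, a p53 target of mitochondrial quality control, was at 3157, 3153, 3038 and 2986 CPM, against 1304, 1409.9, 1398 and 1469 CPM. For all 3 the suffixes of the gates did not overlap.

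Of the 18 genes of the manchette, head shaping and head-tail coupling, Spem1 and Fscn3 were higher than in both gates, and Spag4 and Sun5 lower. Under the 8% limit Spag4 alone kept its call, and the log2 ratios against falling-share spermatids were 0.81 for Spem1, 0.89 for Fscn3 and -0.84 for Sun5. Spag4, a SUN-domain protein of the spermatid nuclear envelope, was at 61.5, 61.9, 57.7 and 71.4 CPM in the latest spermatids, against 637, 636, 631 and 558 CPM in high-share spermatids. Sun5, which couples head and tail, was at 17.4, 22.7, 14.4 and 24.7 CPM, against 63.3, 51.8, 46 and 40.9 CPM. In the polyamine list 1 of 8 was higher than in both gates, which is Oaz3 again, and none was lower. Azin1, the antizyme inhibitor of somatic cells, was at 7.12 CPM in latest and 9.71 CPM in high-share spermatids, against 1064 and 403 CPM for Azin2.

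**Figure D3:**
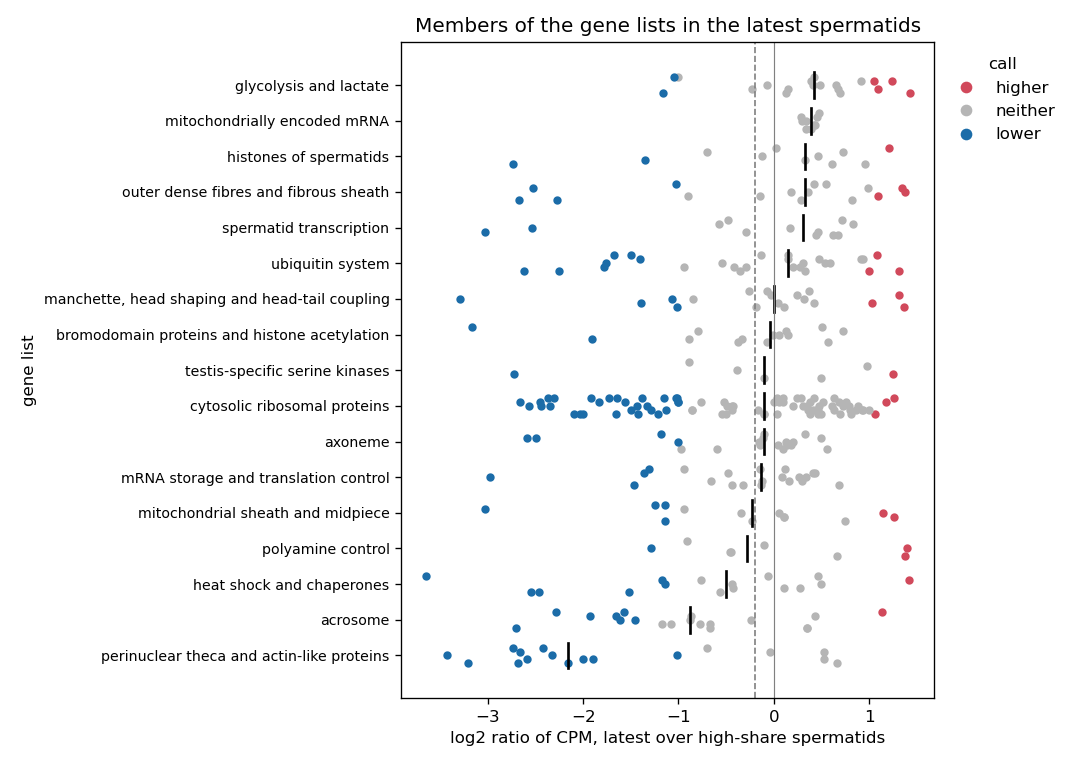
Log2 ratio of CPM, latest over high-share spermatids, of each measured member of 17 gene lists, with the list median as a black bar and the median of all genes, -0.20, as a dashed line. Among these 17 the perinuclear theca list has the lowest median, -2.16, and the glycolysis list the highest, 0.43. The lists not drawn are transition proteins and protamines (median -1.23), nuclear-retained RNA (-0.91) and dissociation stress (0.80).

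Of 19 glycolytic genes of the sperm set, 14 had log2 ratios above 0 in each comparison. Over all genes 2624 of 9458 were above 0 against falling-share and 4097 of 9973 against high-share spermatids. Of these 19, 4 were higher than in high-share spermatids, none was higher than in both gates and 2 were lower than in both. Aldoa (aldolase A) was at 547, 523, 539 and 532 CPM in the latest spermatids, against 179, 216, 199.7 and 210.3 CPM in high-share spermatids (log2 ratio 1.43). Tpi1, triosephosphate isomerase, was at 1062, 1061, 1029.8 and 1003 CPM, against 417, 446, 452 and 449 CPM. Ldhc, the lactate dehydrogenase of germ cells, was lower at 1588, 1843, 1702 and 1979 CPM, against 2547, 4588, 2856 and 4454 CPM in falling-share and 4365, 4073, 3851 and 3567 CPM in high-share spermatids. Ldha, its somatic counterpart, was at 76.9, 122, 107 and 115 CPM, against 143 to 299 and 171 to 244 CPM.

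Of 81 cytosolic ribosomal protein genes measured, 20 were lower than in both gates, 1 was higher, and the median log2 ratio was -0.45 against falling-share and -0.10 against high-share spermatids. With the 8% limit added, 16 of 80 were lower in all comparisons and none was higher. Rplp0, the large stalk protein, was at 116, 209, 212 and 205 CPM in the latest spermatids, against 345, 689.9, 598 and 706 CPM in falling-share and 813, 1254, 1235 and 1283 CPM in high-share spermatids. Its stalk partner Rplp1 was at 885, 749, 750.1 and 737 CPM in latest, against 575, 361, 422 and 369.5 CPM in falling-share and 359, 325, 333 and 348 CPM in high-share spermatids. In the high-share gate Rplp0 thus had the higher CPM in every suffix, and in the latest gate Rplp1. Rps29, of the small subunit, was at 32.3, 18.6, 21.4 and 19.8 CPM in latest against 145, 109, 128 and 102 CPM in high-share spermatids, and Rps9 at 65.5, 89.9, 101 and 94.9 against 330.3, 359.5, 373 and 382 CPM. Rpl41, the shortest ribosomal protein, was the member that was higher, at 2565, 1916, 2069 and 1859 CPM in latest against 1565, 797, 1249 and 868 CPM in falling-share and 986, 777, 862 and 813 CPM in high-share spermatids. All latest suffixes were above all others, but under the 8% limit the log2 ratio against falling-share spermatids was 0.78 and the call was lost.

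Of 21 genes of mRNA storage and translation control 4 were lower than in both gates and none was higher. Papolb, the cytoplasmic poly(A) polymerase of spermatids, was at 49.4, 76.5, 63.4 and 60.8 CPM in the latest spermatids, against 495, 489.9, 507 and 458 CPM in high-share spermatids (log2 ratio -2.97). Ybx1, a Y-box protein that coats mRNA, was at 234, 320.3, 263 and 287 CPM, against 406 to 897 CPM. Mael, a germ granule protein, was at 149, 212, 191 and 198 CPM, against 347 to 519 CPM. Eif4e, the cap-binding initiation factor, was at 1758, 1647, 1696 and 1622 CPM, against 1268, 1177, 1249 and 1256 CPM, with the latest spermatids above in every suffix but under 2-fold. Under the 8% limit only Papolb of this list was lower in all comparisons.

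Chaperone genes had 6 of 16 members lower than in both gates and 1 higher, and under the 8% limit 4 stayed lower and none higher. Hsph1, of the HSP110 family, was at 7.03, 8.6, 6.43 and 9.07 CPM in the latest spermatids, against 35.4, 86.5, 53.1 and 82.4 CPM in falling-share and 98.9, 95.9, 98.4 and 94.9 CPM in high-share spermatids, the lowest ratio of the list against high-share spermatids (log2 -3.65). Calr3, a calreticulin of the testis endoplasmic reticulum, was at 41.1, 34.9, 35.8 and 48.1 CPM, against 306 to 468 and 155 to 290.5 CPM. Hspb9, a small heat shock protein of the testis, was higher at 4757, 4858, 4430.3 and 4674 CPM, against 2689.8, 2054, 2428 and 2126 CPM in falling-share and 1618, 1845, 1675 and 1897 CPM in high-share spermatids. Its call was lost under the 8% limit, at a log2 ratio of 0.85 against falling-share spermatids. Hspa4l, a testis-rich HSP110 family member, was level at 999.7, 997, 967 and 952 CPM in latest and 912, 900.3, 915 and 906 CPM in high-share spermatids.

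In the ubiquitin list 7 of 26 were lower than in both gates and none was higher. Ube2b, a RAD6 conjugating enzyme that male mice need for fertility, was at 90.5, 99.9, 95.8 and 113 CPM in the latest spermatids, against 383, 314, 349 and 298 CPM in high-share spermatids. Rnf148 and Rnf151, RING finger genes of the testis, were at 13.8 to 20.2 and 215 to 262 CPM in the latest suffixes, against 90.3 to 117 and 488 to 1122 CPM in the high-share suffixes. Ube2n, the conjugating enzyme of K63-linked chains, was higher than in high-share spermatids alone, at 5215, 5295, 5326 and 4959 against 1994, 2076, 2184 and 2139 CPM. Of the 7 testis-specific serine kinase genes Tssk1 was lower than in both gates, at 89.9, 95.8, 82.7 and 107 against 712, 618, 638 and 477 CPM in high-share spermatids. Tssk6, which mice need for histone removal, was higher than in high-share spermatids, at 4639, 4450.1, 4389 and 4222 against 1757, 1903, 1848 and 1969 CPM.

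Over all genes, the 12 highest ratios against falling-share spermatids were mostly traces of 2 to 4 CPM, such as Prss50 at 2.64, 1.2, 4.75 and 4.54 CPM in latest and 0.443, 0, 0.916 and 1.63 CPM in falling-share spermatids. Bri3bp and Coil were the exceptions. Bri3bp, a membrane protein, was at 341, 349.7, 344 and 322 CPM in latest, 172, 109, 150.2 and 109.6 CPM in falling-share and 81.7, 91.5, 92.1 and 85.4 CPM in high-share spermatids (log2 ratio 1.41 against falling-share, counting interval 1.33 to 1.48). Coil, which encodes coilin of Cajal bodies, was at 18, 19.4, 23 and 17 CPM in latest, 10.6, 4.92, 8.55 and 7.33 CPM in falling-share and 6.22, 4.96, 4.92 and 4.57 CPM in high-share spermatids. Genes above 1000 CPM in the latest spermatids and higher than in both gates, a set chosen after their values were seen, included the following. Tbc1d20, a Rab GTPase-activating protein, was at 1106, 1121, 1051 and 979 CPM, against 247, 268, 269.8 and 256 CPM in high-share spermatids (log2 ratio 2.03). Phkg2, the testis and liver catalytic subunit of phosphorylase kinase, was at 1981, 1918, 1940.3 and 1891 CPM, against 587, 692, 636 and 659 CPM. Gpat4, a glycerol-phosphate acyltransferase, was at 1419, 1547, 1429 and 1362 CPM, against 520.5, 560, 556 and 580.5 CPM. Car2, carbonic anhydrase 2, was at 2317, 2103, 2161 and 2077 CPM, against 845, 848, 854 and 887 CPM. None of these genes overlapped between gates. Against falling-share spermatids the log2 ratios were smaller, at 1.37 for Tbc1d20, 1.13 for Phkg2, 1.05 for Car2 and 1.02 for Gpat4 (counting interval 0.99 to 1.05). Among abundant genes that were lower, also picked after their values were seen, Hmgb4, an HMG-box protein of male germ cells, was at 526 to 603 CPM over the latest suffixes, against 2388 to 4222 CPM over the falling-share suffixes (log2 ratio -2.73). Dynll2, a dynein light chain, was at 629 to 849.7 against 2413 to 2713 CPM.

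The 12 lowest ratios belonged to genes nearly absent from the latest spermatids. Rap1gap, a GTPase-activating protein of Rap1, had 10 UMI over all 3310 members and 220 UMI over the 1775 falling-share cells, a pooled log2 ratio of -4.95 (counting interval -6.03 to -4.04). The gene 4921509C19Rik had 31 UMI over the members and 664 over the falling-share cells (log2 ratio -4.91). For Col27a1, a fibrillar collagen chain, 2 UMI over the members stood against 156 over the falling-share cells, and the counting interval of its log2 ratio ran from -9.83 to -4.90.

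The latest spermatids themselves differed in how much Prm1 remained beside Prm2, and the cells were ordered by the share Prm1/(Prm1 + Prm2), a division made after the data were seen. It was under 0.05 in 1692 members, here called Prm1-lost, and 0.2 or more in 684, here called Prm1-kept. Prm1-lost members had a median of 4524 UMI and Prm1-kept members 8575. The lowest bin, with a share under 0.02, held 19.7%, 22.8%, 23.2% and 22.6% of the members of suffixes 1 to 4, and the highest, at 0.3 or more, held 13.1%, 5.17%, 8.17% and 6.07%. In that order of bins Tnp1 was at 616 and 1822 CPM, and Tnp2 at 1818 and 12106 CPM. With cells thinned to 1000 UMI the lowest bin had a median of 398 genes and the highest 474.5.

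**Figure D4:**
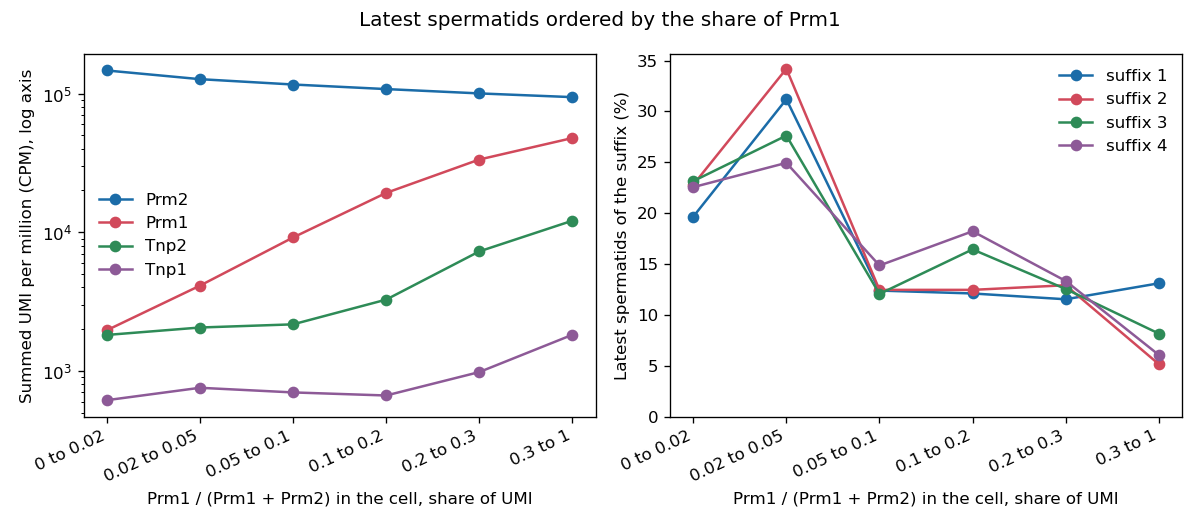
Latest spermatids by the share of Prm1 in Prm1 + Prm2, with CPM (log axis) of the 4 nuclear protein mRNAs on the left and the percentage of each suffix's latest spermatids on the right. In the lowest bin Prm2 was at 146605 CPM and Tnp2 at 1818 CPM, and in the highest at 94194 and 12106 CPM.

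Of 6372 genes compared between Prm1-lost and Prm1-kept members, 135 were higher (2.12%) and 737 lower (11.6%) in Prm1-lost members, and the median log2 ratio was 0.14. Of the 6 marker genes, Lelp1 was at 4631 CPM in Prm1-lost and 2207 CPM in Prm1-kept members, Azin2 at 1440.1 and 691 CPM, and Fscn3 at 621 and 284 CPM, all past 2-fold. Smcp was at 29639 and 16719 CPM and Spem1 at 2858 and 1935 CPM, both short of it. The lowest ratios belonged to genes with many UMI in Prm1-kept members. Hspa1l, the HSP70 of spermatids, was at 23.5 CPM in Prm1-lost and 428 CPM in Prm1-kept members (log2 ratio -4.19). Odf3b was at 7.76 and 121 CPM (log2 ratio -3.97), Gstt4, a glutathione S-transferase, at 188 and 2350 CPM, and 1700016P04Rik at 63.8 and 1512 CPM. Prm3, the neighbour of Prm1 and Prm2 that no rule here used, was at 739.7 CPM in Prm1-lost and 2604 CPM in Prm1-kept members, lower like Prm1 while Prm2 remained. H1fnt was at 456 and 1975 CPM. Of 80 ribosomal protein genes 28 were lower in Prm1-lost members and 1 was higher, the largest number lower in any list. That list is also the longest, and the next longest, the ubiquitin list, had 3 of 24 lower. By share, the transition proteins and protamines had more, with 3 of 5 lower, among them Prm1, which the division uses. Of 17 theca and actin-like genes 4 were lower, and of 19 axoneme and 17 glycolysis genes none was lower, against 11.6% of all genes compared. Of the 6372 genes compared here, 1192 were lower than in both gates and 737 (11.6%) lower in Prm1-lost members. Lower on both were 255, which is 34.6% of the 737 and 21.4% of the 1192. Higher on both were 13, which is 9.63% of the 135 genes higher in Prm1-lost members. It is 30.2% of the 43 genes compared here that were higher than in both gates. Prm1-lost and Prm1-kept members are both part of the latest gate. The comparisons therefore share cells, and these overlaps are a description.

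Phf7, the gene deleted in the study's tKO samples, was at 15.8, 78.6, 116 and 24.7 CPM in the latest spermatids of suffixes 1 to 4, against 26.1, 269, 225 and 64.4 CPM in falling-share and 57.7, 560.1, 555 and 75.2 CPM in high-share spermatids. Suffixes 2 and 3 were high and suffixes 1 and 4 low in each of the 3 gates, and the gates overlapped. Within a suffix the latest spermatids were always lowest. Its highest latest suffix was 7.35 times its lowest, and the median of this ratio over 3274 genes was 1.26. A UMI of Phf7 was seen in 28.1% of latest spermatids (median depth 5494 UMI) and in 23.9% of macrophage barcodes (median depth 2423.5 UMI). Per cell its mean was 0.103, 0.5, 0.738 and 0.159 UMI in latest spermatids of suffixes 1 to 4, against 0.0317, 0.588, 0.731 and 0.0794 in macrophage barcodes, with the same split of suffixes in both. The 37 Leydig barcodes (median depth 8329 UMI) held a mean of 0.135 UMI, with a UMI in 13.5% of them. With cells thinned to 1000 UMI, 7.10% of latest spermatids, 12.9% of macrophage barcodes and 2.78% of 36 Leydig barcodes held a UMI (interval for Leydig 0.0703 to 14.5%). The share in latest spermatids was thus not above the macrophage barcodes, but it was above the few Leydig barcodes. The part of free RNA in the Phf7 level was not tested.

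Ppp4r2 and Gm44205, both named after the spread over suffixes was seen, had the same 2 suffixes high and ranked just above Phf7 in that ratio, below Lyz2, Cd74, Erdr1 and 4930458D05Rik. Of the UMI of Cd74, 66.8% came from 1 cell. Ppp4r2, a regulatory subunit of protein phosphatase 4 (chromosome 6), was at 39.1, 298, 276 and 43.7 CPM in the latest spermatids of suffixes 1 to 4. Per cell it had 0.254, 1.89, 1.76 and 0.282 UMI in latest spermatids, against 0.337, 1.48, 1.56 and 0.221 in high-share spermatids and 0.0635, 0.176, 0.141 and 0.111 in macrophage barcodes. Suffixes 2 and 3 were above suffixes 1 and 4 in every spermatid gate, and well above the macrophage barcodes. Gm44205, a long noncoding RNA also on chromosome 6, was at 27.9, 183, 212 and 25.9 CPM. Brdt differed less, by a ratio of 1.51 between its highest and lowest suffix, and Smcp and Prm2 by 1.08 and 1.07. No suffix was assigned to a genotype from these levels.

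**Figure D5:**
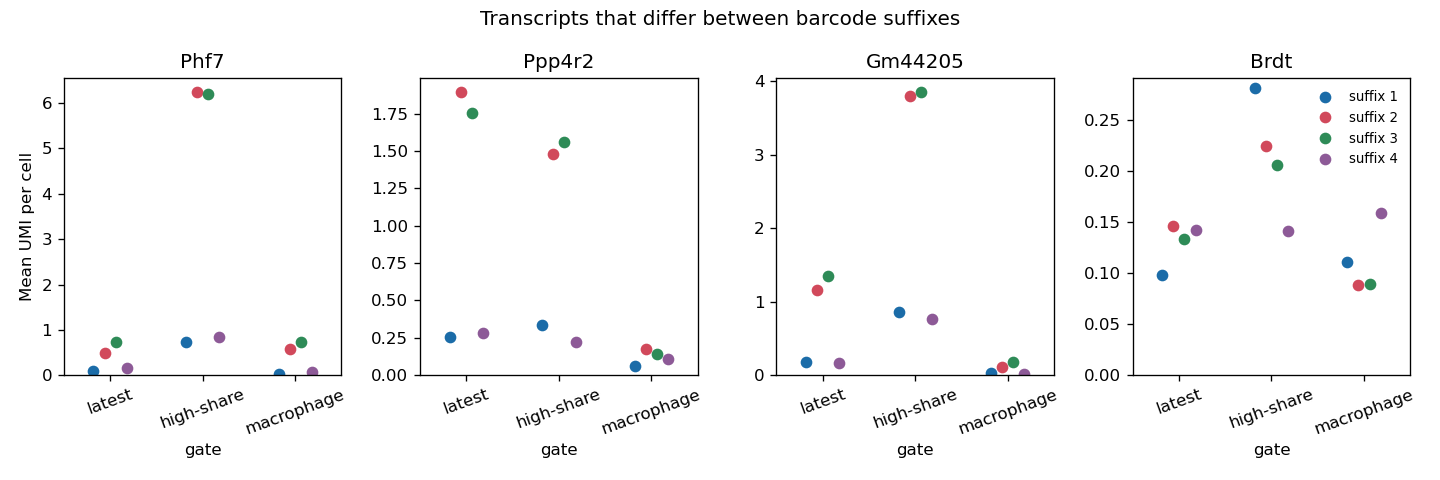
Mean UMI per cell of Phf7, Ppp4r2, Gm44205 and Brdt in latest spermatids, high-share spermatids and macrophage barcodes, with a dot for each barcode suffix and a separate axis for each gene. Suffixes 2 and 3 are above suffixes 1 and 4 for Phf7, Ppp4r2 and Gm44205, at 0.254, 1.89, 1.76 and 0.282 UMI of Ppp4r2 in latest spermatids of suffixes 1 to 4.

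Markers of other cell types were measured in the latest spermatids as well. The 8 spermatocyte markers summed to 365 CPM in latest (326 to 412 by suffix), 332 CPM in falling-share and 292 CPM in high-share spermatids, with Nme8 at 258 CPM in 2019 members and Ccna1 at 38.6 CPM in 673. The 6 spermatogonia markers summed to 23.0 CPM in latest, 28.0 CPM in falling-share and 24.3 CPM in high-share spermatids. The 6 Leydig markers summed to 6.74 CPM in the pool (4.03 to 16.5 by suffix), with 80% of the UMI of Insl3 in 1 cell. The 4 endothelial markers summed to 4.15 CPM with Cdh5 at 0, and the 4 red cell markers to 0.236 CPM with Hbb-bt at 0. The 6 macrophage markers summed to 86.0 CPM (65.7 to 137 by suffix), mostly from C1qb at 60.4 CPM in 926 members, while Csf1r was at 0.754 CPM. Of the 4 peritubular myoid markers Actg2 was at 582 CPM in 2821 members, Acta2 at 0.566 CPM and Tagln at 0.0471 CPM, and Actg2 was higher in high-share spermatids, at 816 CPM. The 12 Sertoli markers, 6 of which the rule limits, summed to 19.3 CPM. Without members holding 3 or more UMI of somatic markers other than Actg2 and C1qb, 3299 remained. The part of these transcripts in the results was not tested.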

How the data were processed

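The authors deposited a matrix of whole-number UMI counts, not normalized, whose header gives software version 3.0.2. Cell Ranger 3.0.2, bcl2fastq 2.19.1.403 and the build mm10 are named in the submitters' processing notes. The sources used here do not give the annotation release. Per the labels, libraries were made with a droplet 3′ kit and read on 2 instruments, which were not told apart here.

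Members were found by the rule with Python 3.11.15, NumPy 2.4.6, SciPy 1.17.1 and pandas 2.3.3. The members, gates and lists were chosen with earlier results of these data known. Counts were summed per gate and suffix. Where a gate had 0 UMI, 3 counts served as its floor. Ratio intervals are exact conditional binomial intervals and shares have exact Clopper-Pearson intervals, at 95%, covering counting error only. The ratio step was tested on simulated data. No doublet caller was run, and doublets must be assumed to remain. The planned edgeR test between genotypes was not run, since no suffix is tied to a sample. Genes named are the markers, Phf7, Brdt, Tnp1, Tnp2, Prm1, Prm3, up to 3 highest and 3 lowest tested members of each list and the 12 highest and lowest of all genes against falling-share spermatids. Other genes are said to be chosen after their values were seen, or are list members given for contrast. A few genes that meet the rule are not reported here. Positions and lengths came from GENCODE M21 on GRCm38, in which 28339 of 28692 gene IDs (98.8%) matched. Alternatives were other limits of the gates, other scalings, thinning to 1000 UMI and leaving out each suffix, and those on the Prm1 share, the median gene, somatic markers, the 8% limit and the falling share under 0.15 were added after seeing the data.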

Additional observations from a re-analysis of the deposited data

How the results depend on the processing

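No paired analysis was possible because no barcode suffix is tied to a sample, its genotype or its replicate number. Leaving out each suffix gave 2282 to 2652 as the number of latest spermatids. It gave 45 to 119 genes higher and 2369 to 2851 lower against falling-share spermatids, 348 to 381 and 2057 to 2600 against high-share spermatids, and 119 to 191 higher and 692 to 726 lower in Prm1-lost members. Percentages here are shares of the genes tested in each setting. The 68 genes higher against falling-share spermatids (0.719%) became 133 (1.46%) with a Tnp1 limit of 0.05, 107 (0.946%) with 10 expected UMI and 40 (0.561%) with 50. They became 31 (0.357%) without the 5% of cells with the most UMI and 633 (6.69%) relative to the median gene. With the falling share under 0.15 they became 10 (0.138%), and with at least 8% nuclear protein UMI 37 (0.47%). The 2825 lower (29.9%) became 1548 with thinning, which was a larger share (33.6%) of fewer genes tested (4608). They became 1759 (18.6%) relative to the median gene, 911 (12.6%) with the falling share under 0.15 and 1212 (15.4%) with 8%. The 368 higher against high-share spermatids (3.69%) became 668 (6.70%) relative to the median gene. The 135 higher in Prm1-lost members became 231 with 10 expected UMI, 52 with 50, 211 as a mean over cells, 88 with thinning and 64 relative to the median gene, and the 737 lower became 433 with thinning. Thinning, higher UMI minimums and narrower gates test fewer genes; the causes were otherwise not tested. Of 4757 values of 144 named genes over 18 settings, 3046 moved by less than their counting interval, 1710 by more, and 1 reversed: Jun, latest over high-share, at -0.19 as a mean over cells. The 3046 include 282 values at 10 and 232 at 50 expected UMI that could not move, since these settings change only which genes are tested. Nor could ratios against high-share spermatids move when the falling share was limited to under 0.15. Depth limits the traces: under about 20 expected UMI no call was made.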

Other observations

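Of the mitochondrially encoded mRNAs, none of 9 measured was past 2-fold in any gate comparison, and their summed level was 1063 CPM in latest, 1310 CPM in falling-share and 829 CPM in high-share spermatids. The cytochrome oxidase mRNA mt-Co3 was at 192, 216, 260.3 and 244 CPM in latest spermatids of suffixes 1 to 4, against 519, 219, 201 and 312 CPM in falling-share and 190.2, 226, 191 and 161 CPM in high-share spermatids, with suffix 1 highest in the falling-share gate and lowest in the latest. The nuclear noncoding RNA Malat1 was at 59.8, 71, 54 and 53.9 CPM in latest, 209, 218, 226 and 235 CPM in falling-share and 178, 71.9, 102 and 60.8 CPM in high-share spermatids.

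Of the genes lower than in both gates, 2.95% lay on the X chromosome, against 2.52% of all tested. Their longest annotated transcripts had a median of 2525 bases, against 2731 for all tested, but the direction depended on level: among genes at 30 to 100 CPM in falling-share spermatids the medians were 2832 and 2575.5 bases. By the median transcript of each gene the values were 1157 and 1167.5 bases. Upstream windows with TATAAA were 4 of 34 (11.8%) among the higher genes and 108 of 1460 (7.40%) among the lower genes, against 464 of 6921 tested (6.70%). The shares among higher, lower and all tested genes were 0, 2.88 and 3.12% for TGACGTCA, 8.82, 4.66 and 3.03% for TGATGTCA, and 14.7, 27.5 and 27.4% for TGACG, with 5 or fewer of the 34 higher genes behind each. In the falling-share gate 251 of 9552 genes were higher than in high-share spermatids, and 12 when its share was limited to under 0.15. Within the latest gate, 3 of 6583 genes were higher and 212 lower in the 2242 members with Tnp1 shares under 0.01 than in the other 1068.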
